A study of Mus musculus with 12 samples.

Results

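A set of 9 genes that set the threshold for B-cell death were followed across germinal center (GC) and non-GC B cells of lupus-prone mice. They are the Bcl2 family members Bcl2, Bcl2l1, Mcl1, Bcl2l11, Bbc3, Bax and Bak1, together with Cflar and Casp8 of the death receptor arm. The 9 were chosen by symbol from 43613 gene entries made from the named loci of the deposited tables, and all 9 had a row in each table. Levels are in FPKM, fragments per kilobase of transcript scaled to a common sequencing depth. Genes that reached 1 FPKM in no fewer than 3 libraries were tested, which kept 14607 genes and 8 of the 9 members. Bbc3 did not reach it and is described by its levels only.

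The study sorted B220+ B cells from spleens of 6-month-old female mice on a C57BL/6J background. The groups were B6.Sle1b.IFNaR1-/- GC B cells, B6.Sle1b GC B cells, B6.Sle1b.IFNaR1-/- non-GC B cells and B6.Sle1b non-GC B cells, with 3 libraries in each. Every mouse thus carried the Sle1b lupus susceptibility locus, and the 2 genotypes differed in the receptor for type I interferon, Ifnar1. They are called Ifnar1KO and Sle1b below. GC cells were sorted as GL7+ CD95+ and non-GC cells as GL7- CD95-, so the level of Fas, which encodes CD95, was used to define the groups. Cells were sorted from pools of splenocytes, and the labels tie no library to an animal of its own. The p-values below therefore measure the spread between these libraries, which may be technical. Each library was compared by the authors only with the other libraries of its batch, a batch being a set of 4 libraries, 1 per group, that shares a set of deposited tables.

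The batches differed in quality. One read on a 1 kb transcript was worth between 0.124 and 0.397 FPKM, and an estimated 832000 to 7051000 reads fell on named genes. Between 12.3% and 26.4% of the tested genes were listed at 0 in the 8 libraries of batches 1 and 2, against 34.9% to 58.9% in the 4 of batch 3. The summed level of 9 GC B-cell marker genes in batches 1 and 2 was 304 to 1005 FPKM in GC libraries, against 52.5 to 89.7 FPKM in non-GC libraries. In batch 3 it was 18.7 and 20.8 FPKM in GC libraries, against 19.2 and 20.7 FPKM in non-GC libraries, so the sum of this list did not separate the groups there. Its genes went both ways in batch 3. Mki67, a marker of dividing cells, was at 5.86 and 5.54 FPKM in Ifnar1KO and Sle1b GC libraries of batch 3, against 0.284 and 1.11 FPKM in the non-GC libraries. Bcl6 was at 0.261 and 0.966 FPKM in those GC libraries, against 4.2 and 8.2 FPKM in the non-GC libraries. Fas was also lower in GC there, at 10.9 and 4.79 FPKM against 15.6 and 4.97 FPKM. General transcripts were lower in the GC libraries of that batch: 7 B-cell markers summed to 29.1 and 23.1 FPKM in Ifnar1KO and Sle1b GC libraries, against 257 and 217 FPKM in the non-GC libraries. Actb (beta-actin) was at 11.5 and 5.78 FPKM in those GC libraries, against 110 and 120 FPKM in the non-GC libraries. Loci whose estimate was flagged as failed were left out. An exact 0 in batch 3 need not mean that the gene was silent, and such values are given as listed at 0. Ifnar1 itself was at 51.1 and 69.1 FPKM in Ifnar1KO non-GC libraries of batches 1 and 2, against 14.5 and 36.1 FPKM in Sle1b non-GC libraries. It was at 14.1 and 15.4 FPKM in Ifnar1KO GC libraries of those batches, against 8.11 and 9.89 FPKM in Sle1b GC libraries. In batch 3 it was listed at 0 in the Ifnar1KO GC library, against 6.80 FPKM in the Sle1b GC library, and at 2.58 FPKM in the Ifnar1KO non-GC library, against 3.45 FPKM in the Sle1b non-GC library. Which part of the gene the reads cover was not tested. The level of the targeted gene thus went against the genotype labels in batches 1 and 2, and every genotype comparison below is between libraries labelled Ifnar1KO and Sle1b.

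Bcl2, Bcl2l1 (Bcl-xL) and Mcl1 are survival proteins that hold the mitochondrial outer membrane intact. Bax and Bak1 are the effectors that permeabilize it, and Bcl2l11 (Bim) and Bbc3 (Puma) are BH3-only proteins whose BH3 helix fits the groove of the survival proteins and sets the effectors free. Caspase-8, the product of Casp8, starts the death receptor arm downstream of Fas, and Cflar encodes cFLIP, a caspase-8 homologue without protease activity that occupies the same signaling complex. GC B cells are known for a high rate of apoptosis and for low BCL2 protein, and they survive only with continuing signals.

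The helix through which the family members bind each other is encoded by the following 45-base stretches, shown because the balance between its donors and its receivers is what the levels below describe. They are read 5′ to 3′ on the coding strand from GENCODE vM21 transcripts (GRCm38), with the 6 codons of the conserved core, from the leucine to the aspartate, in capitals.
Bcl2: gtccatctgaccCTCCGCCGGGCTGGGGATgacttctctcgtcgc
Bcl2l1: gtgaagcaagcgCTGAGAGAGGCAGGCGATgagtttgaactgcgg
Mcl1: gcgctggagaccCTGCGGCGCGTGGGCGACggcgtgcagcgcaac
Bcl2l11: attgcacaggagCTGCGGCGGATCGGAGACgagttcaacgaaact
Bbc3: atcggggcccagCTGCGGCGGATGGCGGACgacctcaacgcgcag
Bax: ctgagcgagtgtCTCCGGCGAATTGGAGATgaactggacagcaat
Bak1: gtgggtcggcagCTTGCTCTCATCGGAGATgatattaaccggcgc

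The Bcl2 stretch lies on the minus strand at chr1:106712569-106712613 in exon 1. The Bcl2l11 stretch lies on the plus strand at chr2:128147138-128147182 in exon 3, and that of Mcl1 on the plus strand at chr3:95659424-95659468 in exon 1. Bcl2l1 (chr2:152829691-152829735, exon 2, minus strand), Bbc3 (chr7:16313761-16313805, exon 3, plus strand), Bax (chr7:45465991-45466035, exon 3, minus strand) and Bak1 (chr17:27022525-27022569, exon 4, minus strand) complete the set. A second pair is shown for the death receptor arm, aligned on 4 residues that both proteins share. The capitals mark the codon of the catalytic cysteine in Casp8 and the codon in the same place in Cflar.
Casp8: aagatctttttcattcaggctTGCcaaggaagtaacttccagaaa
Cflar: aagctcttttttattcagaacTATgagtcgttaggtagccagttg

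The Casp8 stretch lies at chr1:58844598-58844642 in exon 9 and the Cflar stretch at chr1:58752602-58752646 in exon 10, both on the plus strand. The 2 genes are neighbours: the tables place Cflar at chr1:58711498-58759204 and Casp8 at chr1:58794908-58847503.

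The members' levels covered a wide range. FPKM are scaled for length and depth but not for other differences between genes, so the order below is a rough one. Reads of Bcl2 and Bak1 may include those of antisense genes named below. Over the 8 libraries of batches 1 and 2 the median level was 100.8 FPKM for Mcl1, 54.7 for Cflar, 33.0 for Casp8, 19.4 for Bcl2, 10.4 for Bcl2l11, 7.15 for Bak1 and 0.739 for Bax. Bcl2l1 and Bbc3 had a median of 0. Neighbours in that order overlapped in their ranges, with 1 exception: the lowest Bak1 level, 4.32 FPKM, was above the highest Bax level, 1.83 FPKM. The order therefore separates Mcl1, Cflar, Casp8, Bcl2, Bcl2l11 and Bak1 from Bax, Bcl2l1 and Bbc3, which lay near the limit of detection.

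**Figure D1:**
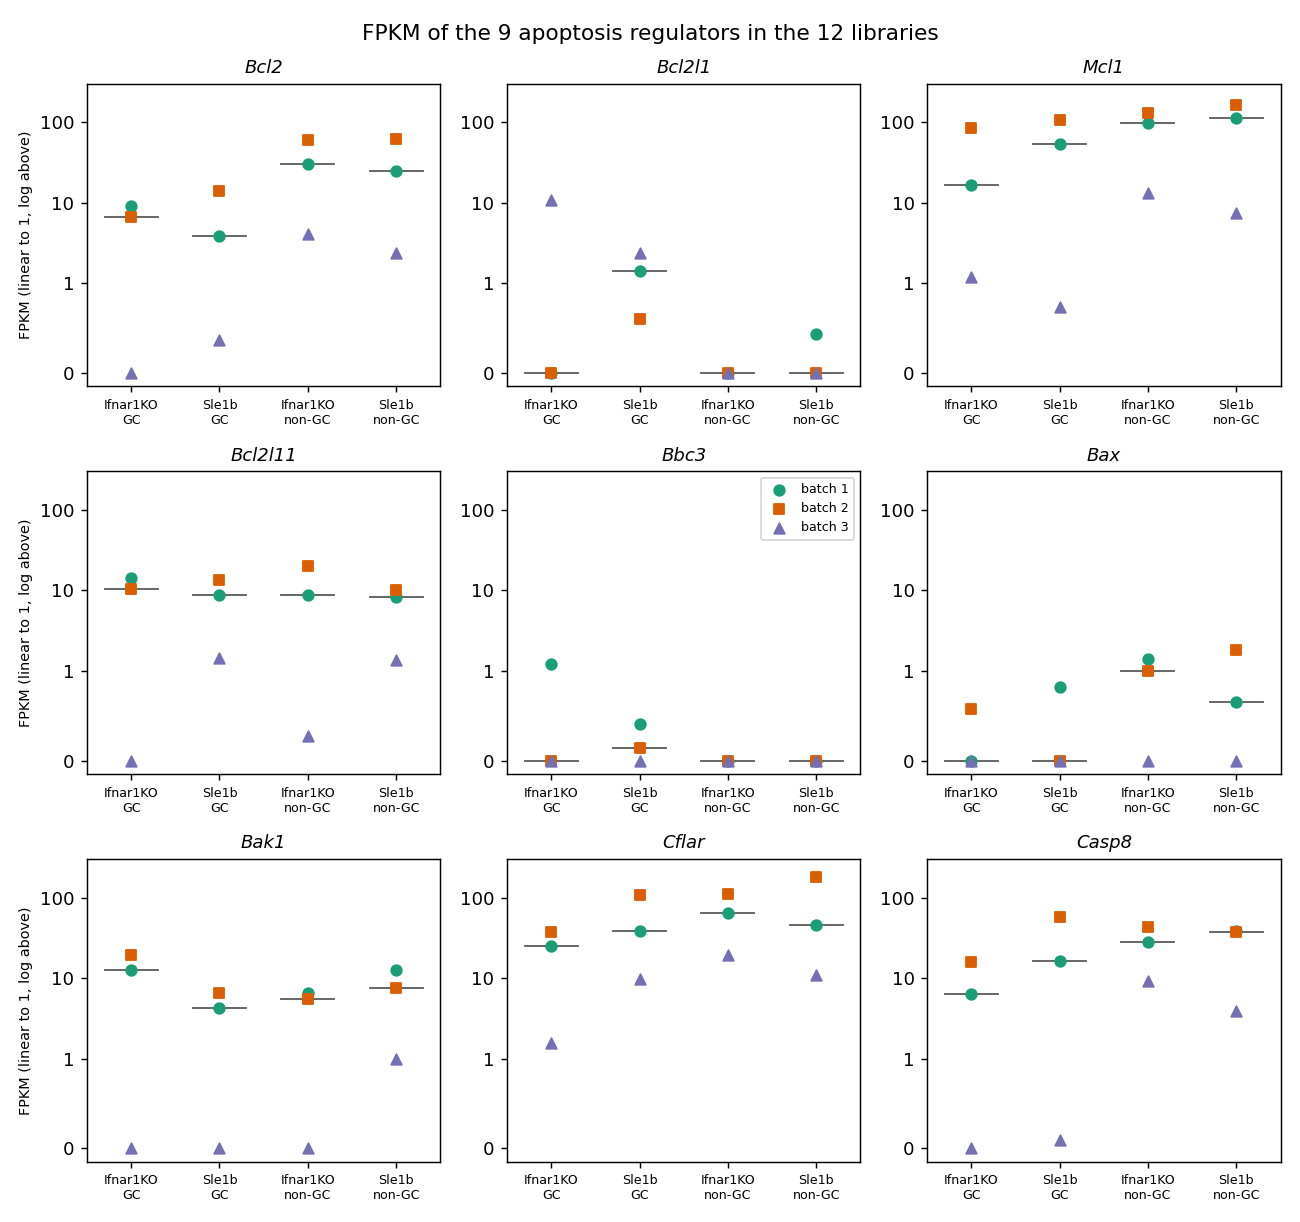
Level of each of the 9 genes in FPKM (vertical axis, linear up to 1 and logarithmic above) in the 4 groups; each point is 1 library, its shape and color give the batch, and the short line is the median of the 3 libraries. Bcl2 was lower in both GC groups in every batch, Bcl2l11 lay between 8.35 and 20.1 FPKM in batches 1 and 2, and batch 3 (triangles) was low for nearly all members.

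The first question was how GC B cells differ from non-GC B cells of the same genotype and batch. Bcl2 was the member with the clearest difference. It stood at 9.02, 6.55 and 0 FPKM in Ifnar1KO GC libraries of batches 1, 2 and 3, against 29.8, 60.1 and 4.04 FPKM in Ifnar1KO non-GC libraries. In Sle1b it stood at 3.81, 13.8 and 0.368 FPKM in GC libraries, against 25.0, 62.1 and 2.40 FPKM in non-GC libraries. Both GC libraries lay below both non-GC libraries in each of the 3 batches. In the 5 pairs in which neither library was at 0, the GC level was between 10.9% and 30.3% of the non-GC level. In bulk samples, fewer cells that express a gene and less RNA per cell cannot be told apart.

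Averaged over both genotypes, Bcl2 differed by -2.14 on the log2(FPKM + 1) scale, a scale that understates the change of low genes (SE 0.38, 95% interval -2.97 to -1.30). This ranked 21 of 14607 genes by p-value, with an adjusted p of 0.0708 in limma with the batch as a block and Benjamini-Hochberg adjustment. Bcl2 thus did not pass the threshold of 0.05 over the 12 libraries. Only 4 genes did in this comparison, 0.0274% of those tested, and 2556 had an unadjusted p under 0.05. In batches 1 and 2 alone, with the filter applied to their 8 libraries, Bcl2 fell by 2.29 on the same scale (SE 0.40, adjusted p 0.0237 in limma). It was the 1 member called there, where 4.59% of 12257 genes were called. The same 8 libraries tested over the original 14607 genes gave the same difference with an adjusted p of 0.0866, so that call rests on the set of genes tested. The annotation places an antisense gene, D630008O14Rik, inside the Bcl2 locus (chr1:106538178-106714274), and reads of the 2 genes cannot be told apart unless strand was kept, which the sources used here do not state.

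Mcl1, the most abundant survival factor of the set, stood at 16.4, 84.5 and 1.20 FPKM in Ifnar1KO GC libraries, against 96.8, 130 and 13.2 FPKM in Ifnar1KO non-GC libraries. Sle1b GC libraries held 54.1, 105 and 0.729 FPKM, against 113, 165 and 7.35 FPKM in Sle1b non-GC libraries. The GC value was lower in all 6 pairs, to between 9.04% and 65.1% of the non-GC level, and both GC libraries again lay below both non-GC libraries in each batch. The mean difference was -1.63 on the log2(FPKM + 1) scale (SE 0.44, adjusted p 0.118 in limma), which did not pass. In batch 2, the difference between the groups was the smallest of the 3 batches, at 65.1% in Ifnar1KO and 63.6% in Sle1b.

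Bcl2l1 had the opposite sign. It was listed at 0 in 7 of the 12 libraries and reached 1 FPKM in 3, all of them GC libraries. Ifnar1KO GC libraries held 0, 0 and 10.7 FPKM, and Ifnar1KO non-GC libraries were listed at 0 throughout. Sle1b GC libraries held 1.40, 0.596 and 2.38 FPKM, against 0.433, 0 and 0 FPKM in Sle1b non-GC libraries. The value of 10.7 FPKM came from the library with the most genes listed at 0. The mean difference of 1.12 (SE 0.51, adjusted p 0.277 in limma) did not pass, and the levels were too low to read a direction from it.

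Bcl2l11, the BH3-only activator, had levels that overlapped between the cell types. Ifnar1KO GC libraries held 14.1, 10.5 and 0 FPKM, against 8.89, 20.1 and 0.277 FPKM in Ifnar1KO non-GC libraries. In Sle1b, GC libraries held 8.88, 13.3 and 1.47 FPKM, against 8.35, 10.2 and 1.37 FPKM in non-GC libraries. The 3 Sle1b pairs gave ratios of GC to non-GC between 1.06 and 1.30, while the Ifnar1KO pairs of batches 1 and 2 gave 1.58 and 0.521. The mean difference was -0.02 (SE 0.40, adjusted p 0.983 in limma), with a 95% interval from -0.90 to 0.85. Differences within that interval were not detectable in these libraries. Bbc3, the p53 target Puma, was detected in 3 of the 12 libraries, all from GC cells, at 1.24 FPKM in Ifnar1KO batch 1 and at 0.404 and 0.138 FPKM in Sle1b batches 1 and 2. Non-GC libraries were all listed at 0. On a 1 kb transcript, 3 reads were worth 0.370 to 1.19 FPKM, so 2 of these 3 values lie at or below the level of 3 reads.

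Among the effectors, Bax was listed at 0 in 6 libraries, including all 4 of batch 3, and did not exceed 1.83 FPKM. Its mean difference was -0.50 (SE 0.34, adjusted p 0.474 in limma). Bak1 was measurable in batches 1 and 2 and went in opposite directions in the 2 genotypes. It stood at 12.5, 19.3 and 0 FPKM in Ifnar1KO GC libraries, against 6.64, 5.55 and 0 FPKM in Ifnar1KO non-GC libraries. Sle1b GC libraries held 4.32, 6.48 and 0 FPKM, against 12.6, 7.67 and 1.00 FPKM in Sle1b non-GC libraries. The GC difference was 0.82 in Ifnar1KO (SE 0.56, adjusted p 0.560) and -0.86 in Sle1b (SE 0.56, adjusted p 0.662), and averaged -0.02. The interaction, which tests the difference between these 2 values, was 1.68 (SE 0.80, unadjusted p 0.0563, adjusted p 0.992 in limma), so the opposite directions did not pass. In batches 1 and 2 alone the interaction was 2.01 (SE 0.81, unadjusted p 0.0361, adjusted p 0.918). Bak1 lies on the minus strand of chromosome 17 and shares the span chr17:26973167-27036378 in the tables with a merged entry for Ggnbp1 and Zbtb9. Ggnbp1 covers all of Bak1 on the other strand, so its values are uncertain.

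In the death receptor arm, Cflar stood at 24.9, 37.3 and 1.57 FPKM in Ifnar1KO GC libraries, against 64.1, 111 and 19.4 FPKM in Ifnar1KO non-GC libraries. Sle1b GC libraries held 38.7, 108 and 9.82 FPKM, against 45.2, 183 and 11.1 FPKM in Sle1b non-GC libraries. The GC level was 8.12% to 38.9% of the non-GC level in Ifnar1KO and 59.1% to 88.5% in Sle1b. The lowest of these came from the Ifnar1KO GC library of batch 3, where 58.9% of tested genes were listed at 0. Over all tested genes the median GC difference was -0.39 in Ifnar1KO and -0.11 in Sle1b. The GC difference was -1.95 in Ifnar1KO (SE 0.54, adjusted p 0.328) and -0.38 in Sle1b (SE 0.54, adjusted p 0.858), with a mean of -1.17 (SE 0.38, adjusted p 0.164). The interaction was -1.58 (SE 0.77, unadjusted p 0.0611, adjusted p 0.992, all in limma) and did not pass.

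Casp8 stood at 6.34, 16.0 and 0 FPKM in Ifnar1KO GC libraries, against 28.0, 43.8 and 9.17 FPKM in Ifnar1KO non-GC libraries. In Sle1b it stood at 16.2, 58.0 and 0.0959 FPKM in GC libraries, against 39.1, 38.0 and 3.89 FPKM in non-GC libraries. GC values were lower in 5 of 6 pairs, the exception being Sle1b in batch 2, where the GC library was 1.53 times the non-GC library. The mean difference was -1.58 (SE 0.46, adjusted p 0.133 in limma) and did not pass. In the authors' deposited tables, which compare 1 library with 1 library, Casp8 was the 1 member with a q-value under 0.05, in 2 of 17 tables. Both set a batch 3 non-GC library, at 10.2 FPKM (q = 0.0281) and at 3.88 FPKM (q = 0.0288), against the Ifnar1KO GC library of that batch, where Casp8 was listed at 0.

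**Figure D2:**
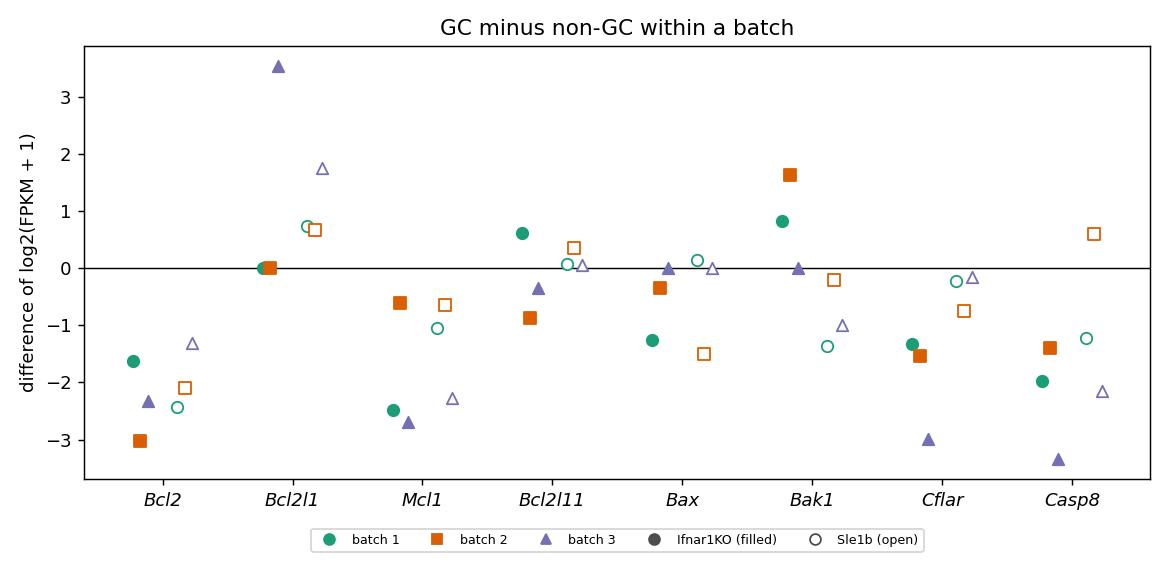
Difference of log2(FPKM + 1), GC minus non-GC, for each of the 8 tested members (horizontal axis); each point is 1 pair of libraries of the same genotype and batch, filled for Ifnar1KO and open for Sle1b. All 6 points lie below 0 for Bcl2, Mcl1 and Cflar, and Bcl2l11 points lie on both sides of 0.

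Counting pairs, 3 of the 8 tested members (Bcl2, Mcl1 and Cflar) were lower in GC in all 6 pairs, where 5.82% of all tested genes were. The same 3 had both GC libraries below both non-GC libraries in each batch, as did 3.85% of all tested genes. The median difference of the 8 members, averaged over genotypes, was -0.83, beside -0.25 over all tested genes and -1.33 over 7 general B-cell markers. In batch 3 the B-cell markers and Actb were lower in GC as well, by the values given above, and their part in the counts over all 3 batches was not tested. The 4 pairs of batches 1 and 2 are part of these 6 pairs. The same 3 members were therefore bound to be lower in GC there, which is no separate check. The share of all tested genes lower in those 4 pairs was not computed. The median GC difference over all genes tested in these 2 batches was -0.34. The B-cell markers there summed to 1144 and 2062 FPKM in Ifnar1KO GC and 1479 and 1993 FPKM in Sle1b GC libraries, against 2166 and 2068 FPKM in Ifnar1KO and 1982 and 2190 FPKM in Sle1b non-GC libraries. An unadjusted p under 0.05 was found for 5 of the 8 (Bcl2, Bcl2l1, Mcl1, Cflar and Casp8), beside 17.5% of all tested genes, in a set chosen with earlier results of these data known. Of these, Bcl2l1 passed the filter through GC libraries alone, so its p is no support for a difference between the cell types. Within genotypes no member passed limma's adjusted threshold for GC against non-GC. In Ifnar1KO 1 gene of all those tested did (0.00685%), with 1798 at an unadjusted p under 0.05. In Sle1b 0% did, with 1387 at an unadjusted p under 0.05. Bcl2 differed by -2.32 in Ifnar1KO (SE 0.54, adjusted p 0.324) and by -1.95 in Sle1b (SE 0.54, adjusted p 0.403), and Mcl1 by -1.93 (SE 0.62, adjusted p 0.328) and -1.32 (SE 0.62, adjusted p 0.529). Casp8 differed by -2.24 in Ifnar1KO (SE 0.65, adjusted p 0.328) and by -0.93 in Sle1b (SE 0.65, adjusted p 0.681), with an interaction of -1.31 (SE 0.92, adjusted p 0.992).

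Libraries of the 2 cell types also differed in other marker lists, whose part in the member differences was not tested. The sum of 7 resting B-cell markers was 159 to 289 FPKM in GC libraries of batches 1 and 2, against 719 to 1128 FPKM in non-GC libraries. Markers of myeloid cells summed to 0.0681 to 12.1 FPKM in Ifnar1KO GC libraries and to 5.80 to 165 FPKM in Sle1b GC libraries, against 1.10 to 26.0 FPKM in Ifnar1KO and 2.83 to 22.2 FPKM in Sle1b non-GC libraries. The highest value came from the Sle1b GC library of batch 1, which also held the highest sum of erythroid and platelet markers, 74.5 FPKM. T-cell markers summed to 1.33 to 17.1 FPKM in the libraries of batches 1 and 2. In batch 3 they summed to 19.7 and 41.0 FPKM in Ifnar1KO and Sle1b GC libraries, against 8.09 and 5.72 FPKM in the non-GC libraries. In the Sle1b GC library of batch 3 that was more than the B-cell marker sum of 23.1 FPKM, but Cd4 alone held 32.5 FPKM of it. Cd3d alone made up the 19.7 FPKM of the Ifnar1KO GC library of batch 3. Plasma cell markers summed to 0.481 to 67.8 FPKM in Ifnar1KO GC libraries and 7.66 to 54.2 FPKM in Sle1b GC libraries, against 6.82 to 79.2 and 3.76 to 89.2 FPKM in Ifnar1KO and Sle1b non-GC libraries. NK-cell markers summed to 0 to 1.42 FPKM in Ifnar1KO GC and 0 to 9.95 FPKM in Sle1b GC libraries. Non-GC libraries held 1.61 to 17.25 FPKM in Ifnar1KO and 0 to 21.9 FPKM in Sle1b. Plasmacytoid dendritic cell markers summed to 1.06 to 2.94 FPKM in GC libraries of batches 1 and 2. Non-GC libraries of those batches held 8.05 to 13.7 FPKM. In batch 3, Ifnar1KO and Sle1b GC libraries held 0.0765 and 2.31 FPKM, against 0.2125 and 12.3 FPKM in non-GC libraries.

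The balance between members was read within each library as a difference of log2(FPKM + 1), which does not depend on how the libraries were scaled to each other except through the pseudocount. Bcl2l11 minus Bcl2 was 0.59, 0.60 and 0 in Ifnar1KO GC libraries, against -1.64, -1.53 and -1.98 in Ifnar1KO non-GC libraries. In Sle1b it was 1.04, -0.05 and 0.85 in GC libraries, against -1.48, -2.49 and -0.52 in non-GC libraries. Every GC library was above every non-GC library, although the Ifnar1KO GC value of batch 3 comes from 2 genes listed at 0. The pair difference, GC minus non-GC, averaged 2.11 ± 0.41 (SD, 6 pairs) and was positive in all 6. These are the same Bcl2 and Bcl2l11 values as above, set against each other, and not a further test.

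Bax minus Bcl2 had a higher value in GC in all 6 pairs, with a mean pair difference of 1.64 ± 1.03 (SD). Bax lay near the limit of detection, so this balance largely restates the Bcl2 difference with its sign reversed and is not a further test. In batch 3, where Bax was listed at 0 throughout, it is exactly that (2.33 in Ifnar1KO and 1.31 in Sle1b). Mcl1 minus Bcl2 showed no fixed direction: it was higher in GC in 3 pairs and lower in 3, with a mean of 0.51 ± 1.42 (SD). Casp8 minus Cflar was below 0 in all 12 libraries, so Cflar had the higher level per length in each. Its pair difference averaged -0.42 ± 1.13 (SD), higher in GC in 2 pairs and lower in 4, which is within the spread between pairs.

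**Figure D3:**
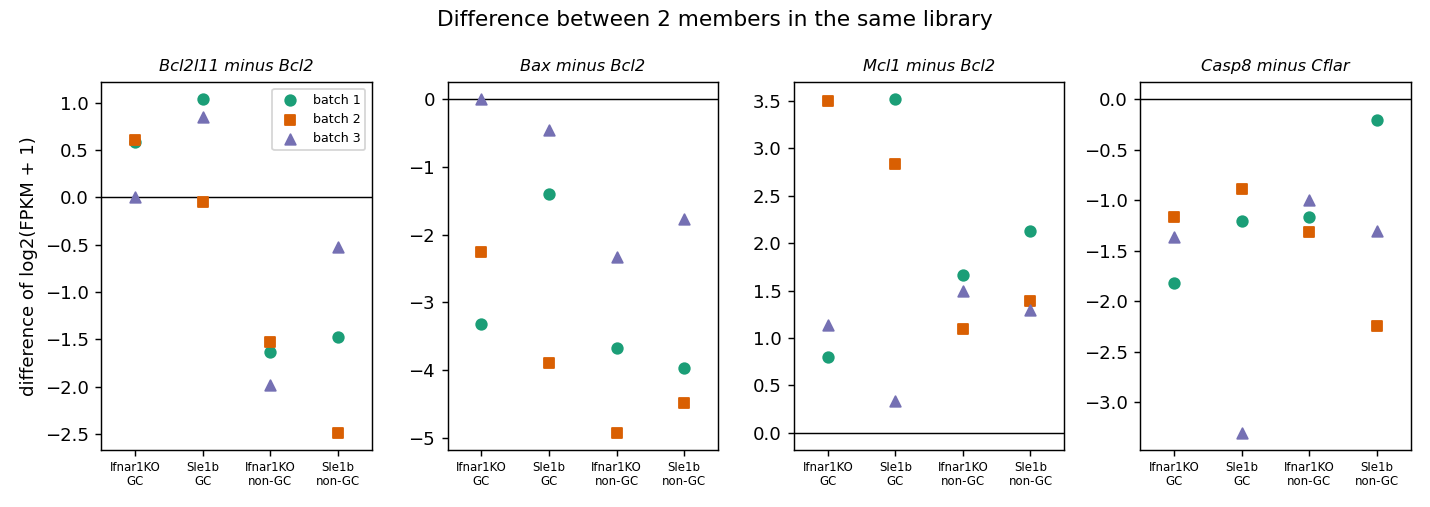
Difference of log2(FPKM + 1) between 2 members in the same library (vertical axis; each panel has its own range) in the 4 groups; each point is 1 library and its shape gives the batch. For Bcl2l11 minus Bcl2, the 6 GC libraries lie at or above -0.05 and the 6 non-GC libraries at or below -0.52, while Casp8 minus Cflar overlaps between the groups.

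The second question was whether the members differ between the genotypes within a cell type. No member passed in either. In non-GC cells 0% of 14607 genes were called by limma, with 243 at an unadjusted p under 0.05, and in GC cells 0%, with 959. The interaction of genotype and cell type also called 0%, with 547 at an unadjusted p under 0.05. The Ifnar1 levels given above went against the genotype labels in the better batches and with them in the remaining batch. Whether the labels are as given was not tested, and all of these comparisons rest on them.

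Cflar and Casp8 were lower in Ifnar1KO GC than in Sle1b GC libraries in all 3 batches, as were 12.7% of all tested genes. The Cflar level in Ifnar1KO GC libraries was 64.3%, 34.4% and 16.0% of that in Sle1b GC libraries of batches 1, 2 and 3. The difference was -1.40 (SE 0.54, unadjusted p 0.0230, adjusted p 0.741 in limma). The Casp8 level was 39.1% and 27.6% in batches 1 and 2, and in batch 3 the Sle1b GC library held 0.0959 FPKM against a value listed at 0. The Casp8 difference was -1.05 (SE 0.65, adjusted p 0.783). Over all tested genes the median of this comparison was -0.26, with the values of Ifnar1KO GC library 3, where 58.9% of tested genes were listed at 0, included. In non-GC cells the same 2 genes went both ways between batches, with a difference of 0.17 for Cflar (SE 0.54, adjusted p 1) and 0.26 for Casp8 (SE 0.65, adjusted p 1).

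Bak1 was higher in Ifnar1KO GC than in Sle1b GC libraries, 2.89 and 2.97 times in batches 1 and 2, and listed at 0 in both libraries of batch 3. The difference was 0.93 (SE 0.56, adjusted p 0.779). In non-GC cells it was lower in Ifnar1KO in all 3 batches, with a difference of -0.75 (SE 0.56, adjusted p 1). The batch 3 pair set a value listed at 0 against 1.00 FPKM. The share of all tested genes lower in all 3 batches of this comparison was not computed. Bcl2 did not separate the genotypes: the difference was -0.12 in GC cells (SE 0.54, adjusted p 0.974) and 0.25 in non-GC cells (SE 0.54, adjusted p 1). In GC libraries its ratio of Ifnar1KO to Sle1b was 2.37 in batch 1 and 0.474 in batch 2, opposite directions in the 2 better batches.

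**Figure D4:**
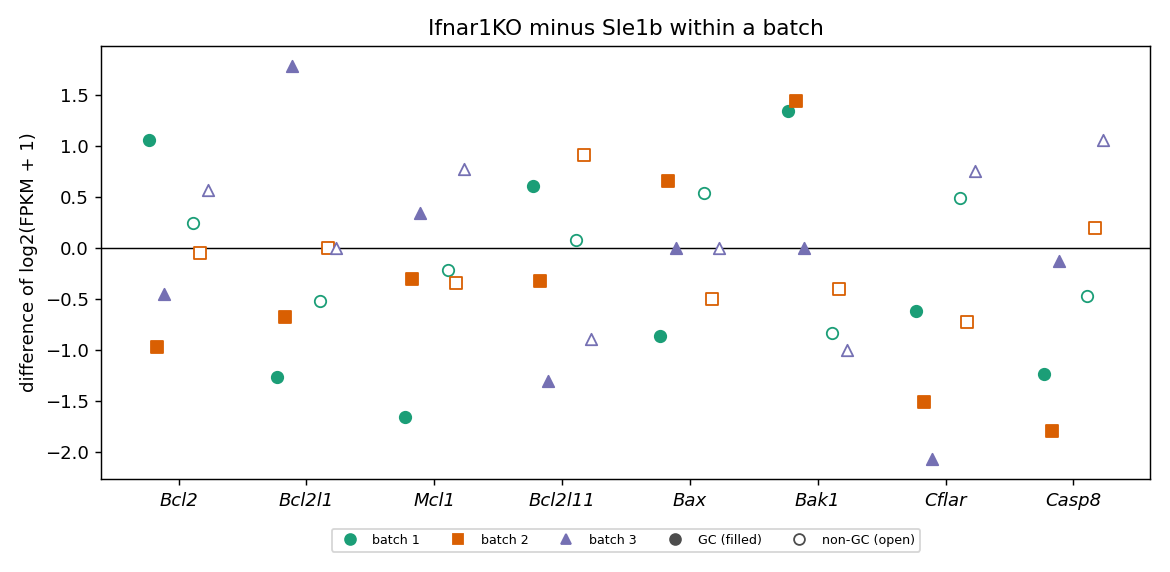
Difference of log2(FPKM + 1), Ifnar1KO minus Sle1b, for each of the 8 tested members; each point is 1 pair of libraries of the same cell type and batch, filled for GC and open for non-GC. The 3 GC points of Cflar and of Casp8 lie below 0, and most other members have points on both sides.

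Because the 2 genotypes differ in the type I interferon receptor, the members' promoters were searched for the interferon-stimulated response element, read as GAAA, any 2 bases and GAAA, and for the gamma-activated site, spelled TTCNNNGAA. The windows ran from 250 bases before to 50 bases after each annotated start (RefSeq, GRCm38.p6), both strands were read, and the 2 motifs may overlap. Over the 32851 windows of the table, 3.44% held the first and 8.30% the second. The 9 members had 14 windows, of which 1 held the first motif and 0 the second. The match was in Cflar, on the minus strand relative to the gene, beginning 7 bases into the transcript, and is shown with its motif in capitals.
Cflar: ccacgtctgcTTTCGGTTTCtgggcgtctc

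This 30-base stretch lies at chr1:58711487-58711516. The match describes the letters only, and says nothing of occupancy.

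A further 5 lists place the members in their pathway. For GC against non-GC, 17.5% of all tested genes had an unadjusted p under 0.05 in limma, and their median difference was -0.25. Of 18 other Bcl2 family genes, 11 were tested and 0 passed limma's adjusted threshold in any comparison, with 1 at an unadjusted p under 0.05 for GC against non-GC and a median GC difference of -0.10. Of 17 genes of the death receptor complex, 13 were tested, with 2 at an unadjusted p under 0.05 and a median of -0.07. Only Fas passed, in batches 1 and 2 alone, with a GC difference of 2.57 (SE 0.52, adjusted p 0.0339 in limma), and CD95 was part of the sort. Fas stood at 13.9, 78.1 and 10.9 FPKM in Ifnar1KO GC libraries, against 3.14, 1.74 and 15.6 FPKM in Ifnar1KO non-GC libraries, so its direction was the reverse in batch 3. Of 13 genes of the apoptosome and the effector caspases, 12 were tested and 0 passed, with 1 at an unadjusted p under 0.05 and a median of -0.31.

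All 5 inhibitors of apoptosis were tested and 0 passed, with a median of -0.87. An unadjusted p under 0.05 was found for 3: Birc3 and Xiap (-0.99, SE 0.43), with negative differences, and Birc5, with a positive one. Birc5 (survivin), which also acts in cell division, had a difference of 1.49 (SE 0.45, adjusted p 0.141 in limma) and was higher in GC in 5 of 6 pairs. It and Xiap are named after their values were seen. Birc3 (cIAP2), a ubiquitin ligase induced by NF-kB, was lower in GC in all 6 pairs, with a mean difference of -1.35 (SE 0.44, adjusted p 0.161 in limma). It stood at 39.6, 139 and 1.79 FPKM in Ifnar1KO GC libraries, against 139, 164 and 30.9 FPKM in Ifnar1KO non-GC libraries. Of 18 upstream regulators, 17 were tested and 0 passed, with 5 at an unadjusted p under 0.05 and a median of -0.64. Of these 17, 5 were lower in GC in all 6 pairs, beside 5.82% of all tested genes. The 2 largest of those 5 were Foxo3, a transcription factor that activates Bcl2l11 and Bbc3, at -1.06 (SE 0.38, adjusted p 0.198), and Rel, the NF-kB subunit c-Rel, at -0.88 (SE 0.34, adjusted p 0.216).

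Finally, the genes whose pattern was most like each member's were found from Pearson's r of batch-centred log2(FPKM + 1) over the 12 libraries, as a description. The libraries share their batch, their depth and the zeros of batch 3, all of which enter r. For Bcl2 the closest were Gm15674 (r = 0.970) and the merged entry of Churc1 and Fntb (r = 0.958). Maml2 (r = 0.979) and Zrsr1 (r = 0.973) were closest to Mcl1, Dync1i2 (r = 0.968) and Ints12 (r = 0.966) to Casp8, and Surf2 (r = 0.957) and Eif1 (r = 0.956) to Cflar. Among the members themselves, Mcl1 and Casp8 had the highest r, 0.935, and Bcl2 and Bcl2l11 had an r of 0.133.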

How the data were processed

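RNA from sorted splenic B cells was sequenced after SMARTer Ultra Low Input and Nextera XT library preparation, per the labels' protocols. The submitters' processing notes name GRCm38 and, for the software, Cuffdiff, Cufflinks 2.2.1, TopHat2 2.0.9, Bowtie2 2.1.0 and CASAVA. The 17 deposited tables, per the file headers, give FPKM of 2 libraries for 506504 loci (45241 named) and the authors' q-value and p-value for each. The direct table of Sle1b GC and Sle1b non-GC libraries of batch 1 was not used here; both libraries were read from other tables.

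A library's FPKM differ between tables by 1 factor, which was removed by least squares within a batch. The largest residual of this fit, in log2, was 0.174 in batch 1, 0.0914 in batch 2 and 0.0161 in batch 3. Pair differences near or below these sizes are uncertain, such as those of Cflar (-0.22) and Bcl2l11 (0.08) in Sle1b of batch 1. Named loci were summed by name, and 9 loci with a failed estimate were left out. Genes that reached 1 FPKM in 3 or more libraries were tested on log2(FPKM + 1) with limma 3.58.1 (trend, batch as a block, 6 residual degrees of freedom) in R 4.3.3, and p-values were adjusted over 14607 genes. Deviations from group means correlated at 0.289 to 0.7045 in the 18 same-batch pairs of libraries. In 36 pairs of different batches and groups they correlated at -0.6245 to 0.4552. The ranges overlap, and differences in quality between batches enter both. FPKM hold no counts, so depth was estimated from the steps of low values at short loci, taken as unspliced without a check. Of these values, 96.7% to 98.9% came within 0.1 read of a whole number. The step was chosen for closeness to whole numbers, so that share is no separate check of the depth. No pair of libraries was identical.

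The members and lists were chosen with earlier results of these data known. Named beside the members are genes of 5 apoptosis lists that passed 0.05 or, per list, the 2 largest with 1 sign in all 6 pairs. The alternatives were a pseudocount of 0.1, no filter, no batch block, equal library medians, each library or batch left out, and batches 1 and 2 alone.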

Additional observations from a re-analysis of the deposited data

How the results depend on the processing

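Over 33 member values and 595 alternatives, 558 kept their direction and their side of the threshold (for the balances, stayed within 1 SD of the pairs). Bcl2 in GC against non-GC kept its sign in all 20, from -2.92 (pseudocount 0.1) to -1.92, with adjusted p in limma from 0.0237 to 0.999. The highest was the fit without the replicate block (-2.14, SE 1.09), and the 1 under 0.05 was batches 1 and 2 alone (-2.29). With equal library medians the all-gene median GC difference was -0.12, against -0.25, and Bcl2, Mcl1, Cflar and Casp8 kept their direction. The Bcl2l11 minus Bcl2 pair difference became 2.65 with a pseudocount of 0.1. Near-zero GC differences changed sign: Bcl2l11 to 0.15 with equal medians and 0.040 in batches 1 and 2 alone (-0.24 to 0.16 with a library or batch left out), and Bak1 to 0.13 and 0.22 (-0.39 to 0.22). Of the genotype differences, batches 1 and 2 alone gave 0.044 for Bcl2 in GC (-0.71 to 0.30 with a library or batch left out), -0.12 for Cflar in non-GC (-0.15 to 0.62) and -0.14 for Casp8 in non-GC (-0.39 to 0.68). Mcl1 minus Bcl2 gave -0.20 to 1.09 with a batch left out.

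The number of genes called for GC against non-GC, 4 in all, was 1 with a pseudocount of 0.1, 1 without the filter, 0 without the replicate block, 562 in batches 1 and 2 alone, and 0 to 10 with a library or batch left out, 10 without either GC library of batch 3. In Ifnar1KO it was 0 without the filter, 0 without the block, 38 in batches 1 and 2 alone and 0 to 2 with a library or batch left out. In Sle1b it was 7 and 0 to 1, for the genotypes in GC 1 and 0 to 1, and for the interaction 0 to 1. The cause was not tested. With the original filter, batches 1 and 2 gave 1 call, so the 562 depend on which genes were tested.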
